A study of Homo sapiens with 33 samples.

Results

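CD38 and 5 other genes that make or consume nicotinamide adenine dinucleotide (NAD) were followed in THP-1, a line of human monocytic leukaemia cells. The genes were chosen by symbol, with earlier results of these data known. They were CD38, BST1, NAMPT, NMNAT1, PARP1 and SIRT1, which are 6 of the 19775 genes on the array, and every one of their 11 probe sets was taken. A probe set is a group of short probes on the array that reports on transcripts of a gene. NAMPT had 4 probe sets, NMNAT1 had 3 and the other genes had 1 each (205692_s_at for CD38, 205715_at for BST1, 208644_at for PARP1 and 218878_s_at for SIRT1).

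The 33 Affymetrix HG-U133 Plus 2 arrays each held total RNA of a separate culture well, and no group carried a genetic change. All-trans retinoic acid (RA) was given at 20 nM and tumor necrosis factor (TNF) at 5 ng per ml. The RA plus TNF wells (n = 5) had RA for 40 h, with TNF for the last 24 h. The RA wells harvested at 40 h (n = 5) were given RA again after 16 h. The TNF wells (n = 5) were harvested at 40 h after 24 h of TNF, and the vehicle wells harvested at 40 h (n = 6) had 0.1% ethanol. The RA time course held 2 wells at 2 h, 2 wells at 6 h and 3 wells at 16 h, with 5 vehicle wells whose titles name them as a start-point control and whose treatment notes give a harvest at 16 h. It also took the RA 40 h and vehicle 40 h wells of the later array set, which experiment 1 (the 40 h groups) uses too, so the time course and the 40 h comparisons share those arrays. All wells came from the same cell line, so the p-values measure the spread between wells.

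NAD carries electrons in metabolism and is also split by enzymes that use it as a substrate. CD38 and BST1 are surface ectoenzymes of the same family that break NAD down to nicotinamide and ADP-ribose, and form cyclic ADP-ribose, a calcium-releasing messenger. PARP1 and SIRT1 consume NAD in the nucleus, PARP1 to attach poly-ADP-ribose to proteins at DNA damage and SIRT1 to remove acetyl groups from proteins. NAMPT, the rate-limiting enzyme of the salvage route, turns the released nicotinamide into nicotinamide mononucleotide, and NMNAT1 turns that into NAD in the nucleus. CD38 has long been known as a gene that RA raises in myeloid leukaemia cells, through a retinoic acid response element described in the first intron of the gene.

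CD38 lies on chromosome 4 at positions 15778328 to 15853232 and BST1 at positions 15703065 to 15774173 (GRCh38.p14, RefSeq annotation), with 4155 bases and 0 annotated genes between them. NAMPT lies on chromosome 7 (106248298 to 106285888), NMNAT1 and PARP1 on chromosome 1 (9942923 to 9996892 and 226360691 to 226408093) and SIRT1 on chromosome 10 (67884656 to 67918390). The 250 bases before the CD38 transcription start, at chr4:15778078-15778327 on the plus strand, are shown because CD38 was the member with the largest changes. Capitals mark GGGTCA, a hexamer of the kind that RA receptors bind as one arm of a repeat.

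CD38: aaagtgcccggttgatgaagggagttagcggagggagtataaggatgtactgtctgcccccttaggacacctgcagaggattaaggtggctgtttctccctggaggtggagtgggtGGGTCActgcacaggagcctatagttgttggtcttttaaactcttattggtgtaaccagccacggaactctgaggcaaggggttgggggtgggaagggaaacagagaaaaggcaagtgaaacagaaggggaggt

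The GGGTCA match starts 134 bases before the start site. A search of both strands, overlaps allowed, found GGGTCA in 12.2% of the 27305 RefSeq promoters of that length. Among the other members, the window of NAMPT held 1 match and that of SIRT1 held 2. BST1 had no window in the promoter set used, so its promoter was not searched. AGGTCA (12.1% of promoters), AGTTCA (8.91%) and GGTTCA (7.17%) had no match in this CD38 window, nor had the kappaB consensus of NF-kB factors (5.05% of promoters). The intron element lies outside this window. The CD38 window was 52.4% G or C with 3 CpG sites, and the windows of NAMPT, NMNAT1, PARP1 and SIRT1 were 68.8% to 77.2% G or C with 21 to 34 CpG sites (medians of all promoters 58.0% and 11 CpG sites).

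Levels below are multiples of the median signal of the same array, so a level of 1 equals the array's own median probe set. Differences are log2 differences ± SE from linear models fitted to all 27306 probe sets that passed a filter on low signal, and a difference was called when its Benjamini-Hochberg (BH) adjusted p was under 0.05. Array medians before centring, recovered from the deposited values with each array's lowest signal set to 1 unit, ranged from 18.9 to 45.2 units. The array numbers in the titles fall into 2 runs of 12 and 21 arrays, called array set 1 and array set 2, and each 40 h group has arrays in both, so set 1 against set 2 was a term of the 40 h model and values within each set are given for the differences that the results turn on. Of the monocyte markers, 7 of 8 lay above the array median, from MPO at 1.00 to LYZ at 77.6. FCGR1A (0.664) did not. Lymphocyte, plasma cell, erythroid and epithelial markers had medians of 0.378 to 0.652, but some of their genes lay above the array median. These were 2 of 7 lymphocyte markers, NKG7 (7.90) and CD79A (2.37), and 2 of 6 plasma cell markers, FKBP11 (2.90) and SDC1 (1.48). HBB (1.44) was the only one of 5 in the erythroid list, and COL1A1 (2.60) the only one of 7 in the epithelial list.

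At 40 h, RA moved CD38 and no other member past the threshold, whereas TNF moved CD38 and NAMPT. Among member probe sets, RA against vehicle gave 1 call of 11, with 2.86% of all tested probe sets called. TNF against vehicle gave 3 of 11, with 7.79% called. RA plus TNF against vehicle gave 4 of 11, with 14.9% called. RA plus TNF against TNF gave 1 of 11, with 6.08% called. RA plus TNF against RA gave 2 of 11, with 9.54% called. The test of whether RA and TNF together differed from the sum of their separate log2 effects gave 0 of 11, with 0.249% called (68 of all probe sets, or 2256 at an unadjusted p under 0.05). Every call at 40 h was a rise. The first 3 of these comparisons share the vehicle arrays, and the median log2 difference of all tested probe sets stayed within 0.04 of 0 in each of the 6.

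In the time course, CD38 was called against vehicle at every RA time, and PARP1 was the other member called, at 16 h. NAMPT probe set 243296_at fell below the filter there, which left 10 member probe sets. RA at 2 h gave 1 call of 10, with 0.571% of all probe sets called. RA at 6 h gave 1 of 10, with 4.95% called. RA at 16 h gave 2 of 10, with 4.75% called, and RA at 40 h gave 1 of 10, with 3.51% called. Between RA times, 6 h against 2 h gave 0 of 10 with 0.0439% called (692 of all probe sets at an unadjusted p under 0.05). Next, 16 h against 6 h gave 1 of 10 with 17.9% called. Last, 40 h against 16 h gave 0 of 10 with 0.00366% called (2927 at an unadjusted p under 0.05). On the median-centred values the median log2 difference from vehicle of all tested probe sets was 0.33 after 2 h of RA, 0.37 after 6 h, -0.17 after 16 h and 0.14 after 40 h. For 16 h against 6 h it was -0.54. On the signals without median centring these medians were -0.0007, -0.04, -0.03 and -0.02, and 0.02 for 16 h against 6 h. Array medians before centring were 22.1 to 24.4 units at 2 h, 18.9 to 25.6 units at 6 h and 29.6 to 35.0 units at 16 h, against 24.8 to 35.6 units in vehicle at 16 h; their part in the time course was not tested. For that reason the called differences of the time course are also given relative to the all-probe-set median.

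CD38, the surface NAD glycohydrolase, stood far above vehicle after 40 h of RA. Its levels were 37.9, 26.9, 29.5, 59.9 and 83.3 in the RA wells, against 3.02, 5.50, 2.32, 6.49, 7.78 and 5.71 in vehicle wells (the first 3 values of each group are from array set 1). The lowest RA well was above the highest vehicle well. CD38 averaged 47.5 ± 23.8 in RA wells (SD, n = 5) and 5.14 ± 2.08 in vehicle wells (SD, n = 6), a 9.71-fold rise (log2 difference 3.28 ± 0.18, adjusted p = 1.69e-14). The rise was 3.20 within array set 1 and 3.42 within array set 2. The arrays measure the RNA of whole wells, so more expressing cells and more RNA per cell cannot be told apart here.

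TNF raised CD38 as well, by a smaller amount. Its levels were 7.04, 7.04, 6.87, 12.0 and 12.2 in TNF wells. Over all wells the TNF and vehicle groups overlapped, with 2 of 5 TNF wells above every vehicle well, but within each array set every TNF well was above every vehicle well. The difference was 0.97 ± 0.18 (1.96-fold, adjusted p = 0.000361), and it was 1.05 within array set 1 and 0.87 within array set 2. Without the array set term the difference was not called (adjusted p = 0.139).

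In cells that had TNF, RA raised CD38 again. The RA plus TNF wells had CD38 levels of 43.9, 37.9, 34.8, 58.4 and 53.6, with a mean of 45.7 ± 10.1 against 9.03 ± 2.81 in TNF wells (SD, n = 5 each). All 5 RA plus TNF wells lay above all TNF wells. The difference was 2.37 ± 0.19 (5.15-fold, adjusted p = 6.68e-11), and within the array sets it was 2.47 and 2.21. Against vehicle, RA plus TNF gave a 10.1-fold rise (adjusted p = 1.95e-15).

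Adding TNF to RA gave no further called change of CD38. RA plus TNF wells and RA wells overlapped, with a difference of 0.05 ± 0.19 (95% interval -0.33 to 0.44, adjusted p = 0.918). That difference was 0.31 within array set 1 and -0.34 within array set 2. The interaction, which is the RA effect on CD38 in the presence of TNF minus the RA effect without TNF, was -0.91 ± 0.26 (95% interval -1.44 to -0.38 before adjustment). With an adjusted p of 0.160 over all probe sets it was not called. After quantile normalization it was -1.04 (adjusted p = 0.00503), and on the signals without median centring it was -0.95 (adjusted p = 0.00622), both past the threshold. Of 7 tested monocyte markers, 3 rose and 0 fell with RA (median 0.03): ITGAM (1.19, adjusted p = 6.70e-06), CSF1R (0.67, adjusted p = 0.0144) and CD14 (1.82, adjusted p = 0.0152). With TNF 2 rose and 0 fell (median 0.19), CD14 (2.40, adjusted p = 0.000389) and ITGAM (0.78, adjusted p = 0.00174). The monocyte markers summed to 206 to 269 in RA plus TNF wells, 97.7 to 240 in RA wells, 104 to 204 in TNF wells and 85.5 to 188 in vehicle wells. Of the 2 tested lymphocyte markers 1 rose with TNF (median 0.52), NKG7 (1.09, adjusted p = 0.0049), which was named after its value was seen. Beside these counts, 2.86% of all tested probe sets were called with RA and 7.79% with TNF (4.14% and 11.3% with 1 probe set per gene). The part of these markers in the CD38 levels was not tested.

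**Figure D1:**
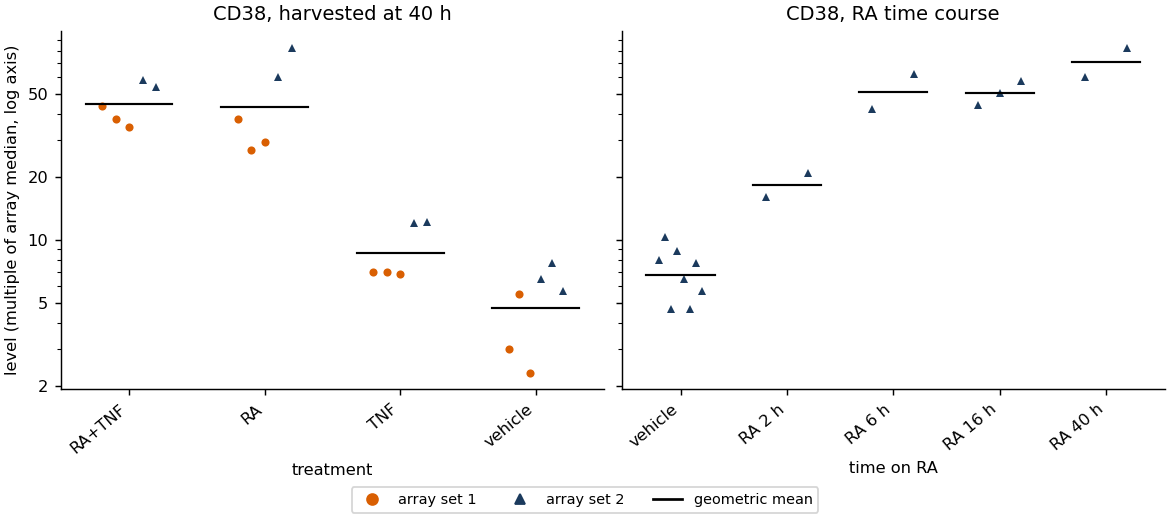
CD38 level in each well (multiples of the array median, log axis) by treatment at 40 h and along the RA time course; circles are array set 1, triangles array set 2 and bars geometric means. At 40 h the RA wells lie between 26.9 and 83.3 and the vehicle wells between 2.32 and 7.78, with TNF wells at 6.87 to 12.2.

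The CD38 rise was called at 2 h of RA and at each later time. The reference was vehicle at 16 h and 40 h, and no vehicle well was harvested at 2 h or 6 h. For those early times, RA and harvest time cannot be told apart. Along the time course, CD38 had a mean level of 7.06 ± 2.02 in the 8 vehicle wells (SD). Wells with 2 h of RA had CD38 levels of 16.0 and 20.9, wells with 6 h had 42.1 and 62.3, wells with 16 h had 44.1, 50.4 and 57.6, and wells with 40 h had 59.9 and 83.3. Every RA well from 2 h onward was above every vehicle well of array set 2, where the highest vehicle level was 10.3. The rise at 2 h was 1.43 ± 0.26 (2.69-fold, adjusted p = 0.00256), or 1.09 relative to the all-probe-set median. Without RA 2 h replicate 2 the 2 h rise was not called (adjusted p = 0.331), and the single well left is then assumed to vary like the other groups. Nor was it called without the intensity trend (adjusted p = 0.0613) or with the replicate number as a block (adjusted p = 0.166).

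At 6 h the CD38 rise over vehicle was 2.91 (7.53-fold, adjusted p = 1.26e-08), or 2.54 relative to the all-probe-set median. At 16 h it was 2.89 ± 0.22 (7.40-fold, adjusted p = 7.67e-10), or 3.06 relative to that median. At 40 h it was 3.37 (10.4-fold, adjusted p = 6.63e-10), or 3.24 relative to it. The step between 2 h and 6 h was 1.49 ± 0.32, or 1.43 relative to the all-probe-set median, and was not called (adjusted p = 0.126), though both 6 h wells exceeded both 2 h wells. It was called after quantile normalization (1.39, adjusted p = 0.00859) and on the signals without median centring (1.41, adjusted p = 0.00655). CD38 at 16 h differed from 6 h by -0.02 (95% interval -0.63 to 0.58, adjusted p = 0.963), but by 0.51 relative to the all-probe-set median and by 0.57 after quantile normalization (adjusted p = 0.221). CD38 at 40 h differed from 16 h by 0.49 (95% interval -0.12 to 1.09, adjusted p = 0.495), or 0.17 relative to that median. None of these was called.

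BST1, the neighbour and family relative of CD38, did not share its response to RA. BST1 levels at 40 h were 17.6, 11.0, 15.1, 37.3 and 42.5 in RA wells, against 11.5, 23.2, 14.0, 36.1, 33.0 and 32.3 in vehicle wells. The groups overlapped in array set 1, both RA wells of set 2 lay just above its vehicle wells, and wells of set 2 were higher than wells of set 1 under either treatment. The BST1 difference with RA was 0.03 ± 0.18 (95% interval -0.33 to 0.39, adjusted p = 0.985), with an upper bound far below the CD38 rise. BST1 and CD38 were not compared in level, since probe sets differ in how strongly they bind.

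TNF wells had BST1 levels of 11.4, 9.07, 13.1, 25.4 and 24.9, and RA plus TNF wells had 16.1, 10.4, 11.8, 21.5 and 21.4. In array set 2 every well with TNF was below every vehicle well, while in set 1 they overlapped. The BST1 difference was -0.46 ± 0.18 for TNF against vehicle (95% interval -0.82 to -0.10, adjusted p = 0.118) and -0.44 for RA plus TNF against vehicle (adjusted p = 0.0901), neither called. Within array sets 1 and 2 the TNF differences were -0.49 and -0.43, and those of RA plus TNF were -0.31 and -0.65. After quantile normalization and on the signals without median centring both passed the threshold (on the uncentred signals, adjusted p = 0.00763 for TNF and 0.00222 for RA plus TNF), and in array set 2 alone RA plus TNF did. Leaving out vehicle replicate 1 or RA plus TNF replicate 1 also brought BST1 past the threshold in RA plus TNF against vehicle (lowest adjusted p = 0.0279). Against RA wells, RA plus TNF gave a BST1 difference of -0.47 (adjusted p = 0.112), with -0.19 in set 1 and -0.89 in set 2. It passed the threshold in set 2 alone (adjusted p = 0.0118), after quantile normalization (-0.55, adjusted p = 0.00536) and without median centring (-0.55, adjusted p = 0.00497). It also passed without RA replicate 2 or without RA plus TNF replicate 1 (adjusted p = 0.0359 and 0.0375). In the time course, BST1 levels were 25.9 to 36.8 in vehicle at 16 h, then 35.1 and 39.3 at 2 h, 36.7 and 49.5 at 6 h, and 29.2, 29.6 and 31.7 at 16 h. No BST1 difference from vehicle was called at any RA time, with log2 differences between -0.09 and 0.40 (-0.13 to 0.17 relative to the all-probe-set medians).

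SIRT1, the NAD-dependent deacetylase, was called in 1 comparison, RA plus TNF against vehicle. Its levels were 14.3, 7.58, 10.7, 13.6 and 18.7 in RA plus TNF wells, against 7.59, 11.6, 4.03, 9.55, 10.1 and 9.06 in vehicle wells. The groups overlapped, with RA plus TNF replicates 2 and 3 inside the vehicle range. The SIRT1 difference was 0.63 ± 0.22 (1.55-fold, adjusted p = 0.0437). It kept its call in 2 of 11 fits that each left out 1 array, those without vehicle replicate 2 and without RA plus TNF replicate 2; in the other 9 the adjusted p reached up to 0.150, with differences from 0.45. Its call was also lost without the filter, without the intensity trend, without the array set term, in set 1 alone and with the replicate block (adjusted p = 0.0602 with the block and up to 0.321 in the others). The SIRT1 difference was 0.57 in array set 1 and 0.74 in array set 2.

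Each treatment by itself left SIRT1 uncalled. SIRT1 levels were 7.83, 6.71, 6.93, 9.57 and 12.7 in RA wells and 13.6, 9.49, 9.39, 9.51 and 10.3 in TNF wells, and both groups overlapped with vehicle. The differences from vehicle were 0.09 for RA (95% interval -0.35 to 0.53) and 0.37 for TNF (95% interval -0.07 to 0.81, adjusted p = 0.368). In the time course SIRT1 was at 10.4 and 14.1 after 2 h, 11.2 and 17.7 after 6 h and 8.72, 8.11 and 10.05 after 16 h, and no difference from vehicle was called (0.09 to 0.26 relative to the all-probe-set medians over the 4 times).

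PARP1, the DNA damage-activated polymerase of ADP-ribose, fell at 16 h of RA. Its levels were 49.4, 47.3 and 48.2 at 16 h, against 66.1 to 106 with a mean of 78.2 ± 12.6 in the 8 vehicle wells (SD). All 3 RA wells lay below all 8 vehicle wells. The PARP1 difference was -0.68 ± 0.17 (0.624 of vehicle, adjusted p = 0.0148), or -0.51 relative to the all-probe-set median of that comparison, and it was called after quantile normalization too (-0.55, adjusted p = 0.00131). Leaving out RA 16 h replicate 1 (adjusted p = 0.0583) or replicate 2 (adjusted p = 0.0738) ended the call.

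At the earlier times PARP1 was at 97.3 and 87.9 after 2 h and at 74.4 and 115 after 6 h, within the range of vehicle or just above it. The drop from these times was called for 16 h against 6 h (-0.94, adjusted p = 0.0122), where the median of all probe sets was also lower, so that -0.40 remained relative to it. That call did not hold after quantile normalization (adjusted p = 0.237) or without RA 6 h replicate 2 (adjusted p = 0.410). Without RA 6 h replicate 1 it held (adjusted p = 0.00917). In both of these fits 1 well is left at 6 h, which is assumed to vary like the other groups.

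At 40 h PARP1 no longer differed from vehicle by a called amount. It had levels of 47.3, 35.3, 31.9, 58.2 and 67.9 in RA wells, against 31.7, 68.0, 40.2, 78.7, 77.2 and 66.2 in vehicle wells, and the groups overlapped. The difference was -0.25 in the 40 h groups (adjusted p = 0.692) and -0.30 in the time course (adjusted p = 0.603; -0.44 relative to the all-probe-set median), where it was called after quantile normalization (-0.48, adjusted p = 0.0157). PARP1 with TNF (55.9, 40.5, 56.8, 81.5 and 78.7) and with RA plus TNF (72.6, 42.3, 51.8, 59.8 and 72.7) overlapped with vehicle, with differences of 0.15 and 0.10; the RA plus TNF difference was 0.29 in array set 1 and -0.16 in array set 2.

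**Figure D2:**
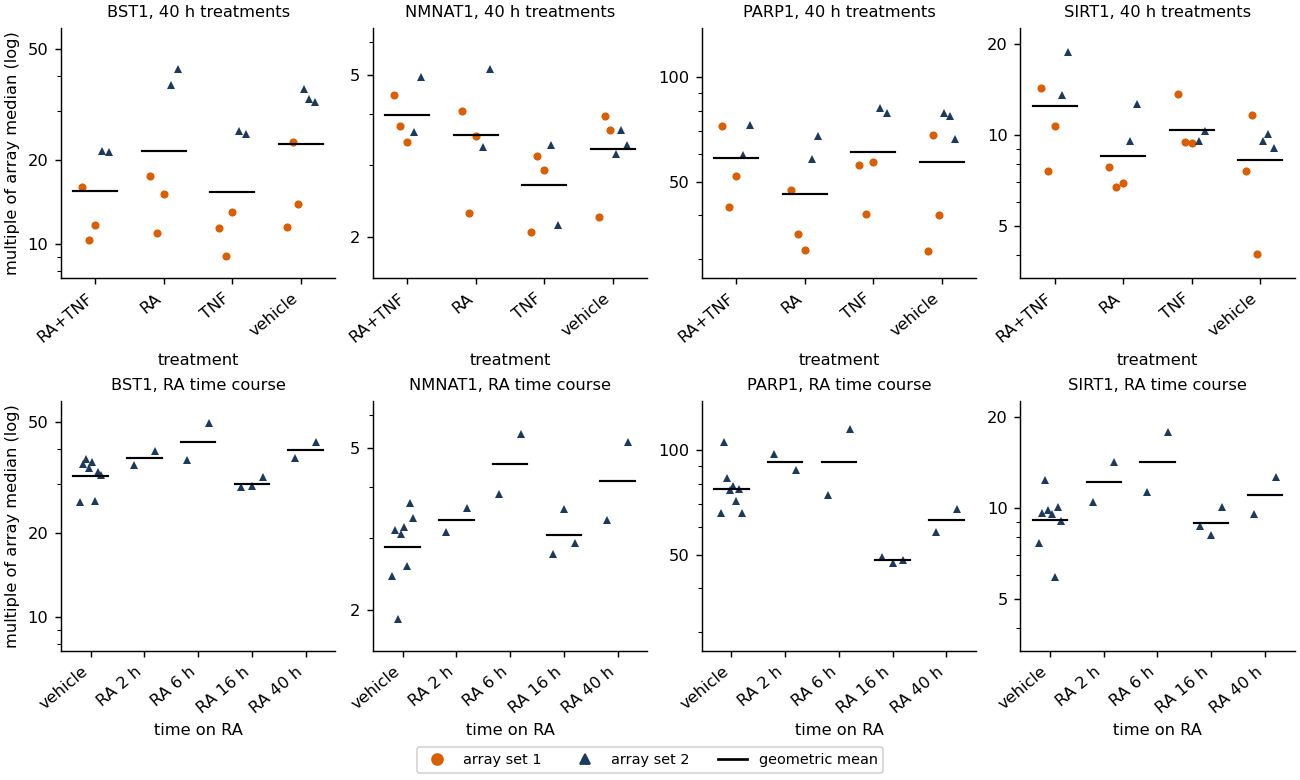
Levels of BST1, NMNAT1 (probe set 223692_at), PARP1 and SIRT1 in each well (multiples of the array median), by treatment at 40 h in the top panels and along the RA time course in the bottom panels; circles are array set 1, triangles array set 2 and bars geometric means. The 3 RA wells at 16 h hold PARP1 at 47.3 to 49.4, below all vehicle wells of the time course, and BST1 is higher in set 2 than in set 1 under vehicle.

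NAMPT, the salvage enzyme, was higher after TNF, and the size of the change depended on the probe set. Probe set 1555167_s_at had levels of 2.55, 2.79, 3.11, 3.31 and 3.15 in TNF wells, against 0.094, 1.35, 0.248, 0.902, 1.73 and 2.61 in vehicle wells. TNF wells were close together and vehicle wells were spread from far below the array median to just above the lowest TNF well. The means were 2.98 ± 0.308 in TNF wells (SD, n = 5) and 1.16 ± 0.950 in vehicle wells (SD, n = 6). Its log2 difference was 2.16 ± 0.50 (adjusted p = 0.00395), a size that rests on the vehicle wells at 0.094 and 0.248 of the array median, where the deposited values carry no detection call. It was made up of 3.15 within array set 1 and 1.01 within array set 2, and it was not called in set 2 alone (adjusted p = 0.249).

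The brighter NAMPT probe sets gave smaller differences with TNF. NAMPT probe set 217739_s_at had levels of 7.72, 7.42, 9.10, 10.1 and 8.84 in TNF wells, against 3.79, 6.39, 4.70, 5.65, 6.80 and 7.35 in vehicle wells. Every TNF well was above every vehicle well, yet the difference of 0.67 ± 0.22 missed the threshold (adjusted p = 0.0621). It passed after quantile normalization (adjusted p = 0.0254) and without vehicle replicate 2 (adjusted p = 0.0259). NAMPT probe set 217738_at had levels of 4.97, 4.55, 4.74, 5.54 and 4.15 in TNF wells, against 2.29, 3.45, 2.01, 3.61, 4.04 and 3.65 in vehicle wells. These groups did not overlap either, and the difference was 0.69 ± 0.26 (adjusted p = 0.100). The dimmest, 243296_at, was called with TNF (1.83 ± 0.54, adjusted p = 0.0306), with TNF wells from 1.22 to 6.48 and vehicle wells from 0.095 to 2.44. That call ended without the intensity trend, without the array set term (adjusted p = 0.224), in array set 1 alone (0.95, adjusted p = 0.278) and without any 1 of TNF replicates 1, 4 and 5 or vehicle replicates 4 and 6 (adjusted p up to 0.119). Within array set 2 the 243296_at difference was 2.92, a size that rests on vehicle wells at 0.095 to 0.5 of the array median. This probe set was not tested in array set 2 alone.

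RA by itself did not raise NAMPT past the threshold in any probe set. NAMPT probe set 217739_s_at had levels of 3.04, 2.48, 3.31, 7.13 and 9.52 in RA wells. The first 3 of them, from array set 1, lay below every vehicle well of the experiment, and the other 2, from array set 2, lay in or above the vehicle range. Its difference from vehicle was -0.28 (adjusted p = 0.748), made up of -0.73 in set 1 and 0.33 in set 2. The other 3 probe sets differed by -0.36, 0.43 and 0.97, none called. In the time course no NAMPT probe set was called at any RA time, and 217739_s_at differed from vehicle by 0.27 after 2 h of RA, by 0.17 after 6 h, by -0.30 after 16 h and by 0.38 after 40 h. Relative to the all-probe-set medians these were -0.06, -0.20, -0.13 and 0.24, with the sign turned at 2 h and 6 h.

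With TNF added to RA, NAMPT rose above RA in 2 of its 4 probe sets. NAMPT probe set 217739_s_at had levels of 10.6, 4.96, 8.01, 10.4 and 12.2 in RA plus TNF wells, with a difference from RA wells of 0.99 ± 0.23 (1.99-fold, adjusted p = 0.00409). NAMPT probe set 217738_at had levels of 5.39, 3.86, 3.76, 4.62 and 6.80 in RA plus TNF wells, against 1.48, 1.12, 2.22, 4.16 and 4.16 in RA wells, a difference of 1.05 ± 0.27 (2.08-fold, adjusted p = 0.00792). Within array set 1 the wells of the 2 groups did not overlap in either probe set, and over both sets they did. Both differences were larger in set 1 (1.36 and 1.47) than in set 2 (0.45 and 0.43), and neither was called in set 2 alone or without the array set term. Whether the sets differ was not tested. The other 2 probe sets were not called, with differences of 1.35 for 1555167_s_at (adjusted p = 0.105) and 0.81 for 243296_at (adjusted p = 0.449).

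Against vehicle, RA plus TNF gave NAMPT differences of 2.32 for 1555167_s_at (adjusted p = 0.000982) and 0.71 for 217739_s_at (adjusted p = 0.0277). All 5 RA plus TNF wells of 1555167_s_at, from 2.62 to 3.89, lay above all vehicle wells. Its call was lost in array set 2 alone, where the difference was 0.97 (adjusted p = 0.192). The call of 217739_s_at was lost without any 1 of RA plus TNF replicates 1, 3 and 5 or vehicle replicates 1 and 4 (adjusted p 0.0543 to 0.104). That call was also lost without the intensity trend, without the array set term and in array set 1 alone (adjusted p up to 0.251). NAMPT probe set 217738_at differed by 0.69 (adjusted p = 0.0647) and passed the threshold without vehicle replicate 2 or RA plus TNF replicate 4 (lowest adjusted p = 0.0355). RA plus TNF differed from TNF by 0.16, 0.00, 0.04 and -0.59 in the 4 NAMPT probe sets, none called. Pseudogenes of NAMPT are annotated elsewhere in the genome and an antisense gene overlaps it, so how much of each probe set's signal comes from NAMPT itself was not tested.

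**Figure D3:**
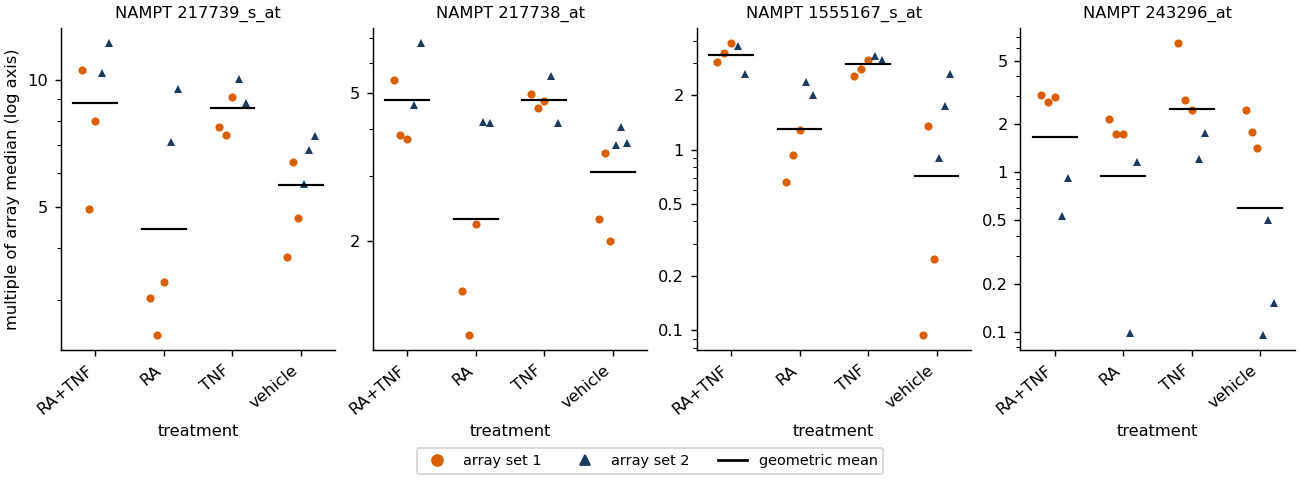
Levels of the 4 NAMPT probe sets in each well at 40 h (multiples of the array median, log axis); circles are array set 1, triangles array set 2 and bars geometric means. TNF and RA plus TNF wells of 1555167_s_at lie between 2.55 and 3.89, while vehicle wells spread from 0.094 to 2.61.

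NMNAT1, which makes NAD in the nucleus, was not called in any comparison by any of its 3 probe sets. The brightest, 223692_at, had levels of 4.45, 3.74, 3.41, 3.61 and 4.93 in RA plus TNF wells, 4.06, 2.29, 3.54, 3.32 and 5.15 in RA wells, 2.06, 3.17, 2.92, 3.37 and 2.14 in TNF wells and 2.24, 3.95, 3.65, 3.19, 3.67 and 3.37 in vehicle wells. RA plus TNF wells all lay above TNF wells, with a difference of 0.58 ± 0.25 (95% interval 0.07 to 1.09, adjusted p = 0.203). The other groups overlapped with vehicle. Over the 3 NMNAT1 probe sets the log2 differences at 40 h ran from -0.28 to 0.63, and the highest upper bound of a 95% interval was 1.49, for 229852_at in RA plus TNF against vehicle. In the time course the largest NMNAT1 value was 0.79 for 1569631_at at 6 h (adjusted p = 0.132), where the all-probe-set median was 0.37.

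Several members differed between the array sets within vehicle alone. In vehicle wells at 40 h, array set 2 minus array set 1 was 0.97 for CD38, 1.12 for BST1, 0.74 for PARP1 and 0.43 for SIRT1 on the log2 scale. For NAMPT it was 2.34 in 1555167_s_at and -3.25 in 243296_at, the dimmest of its probe sets. What distinguishes the 2 sets beyond their array numbers is not given in the labels.

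**Figure D4:**
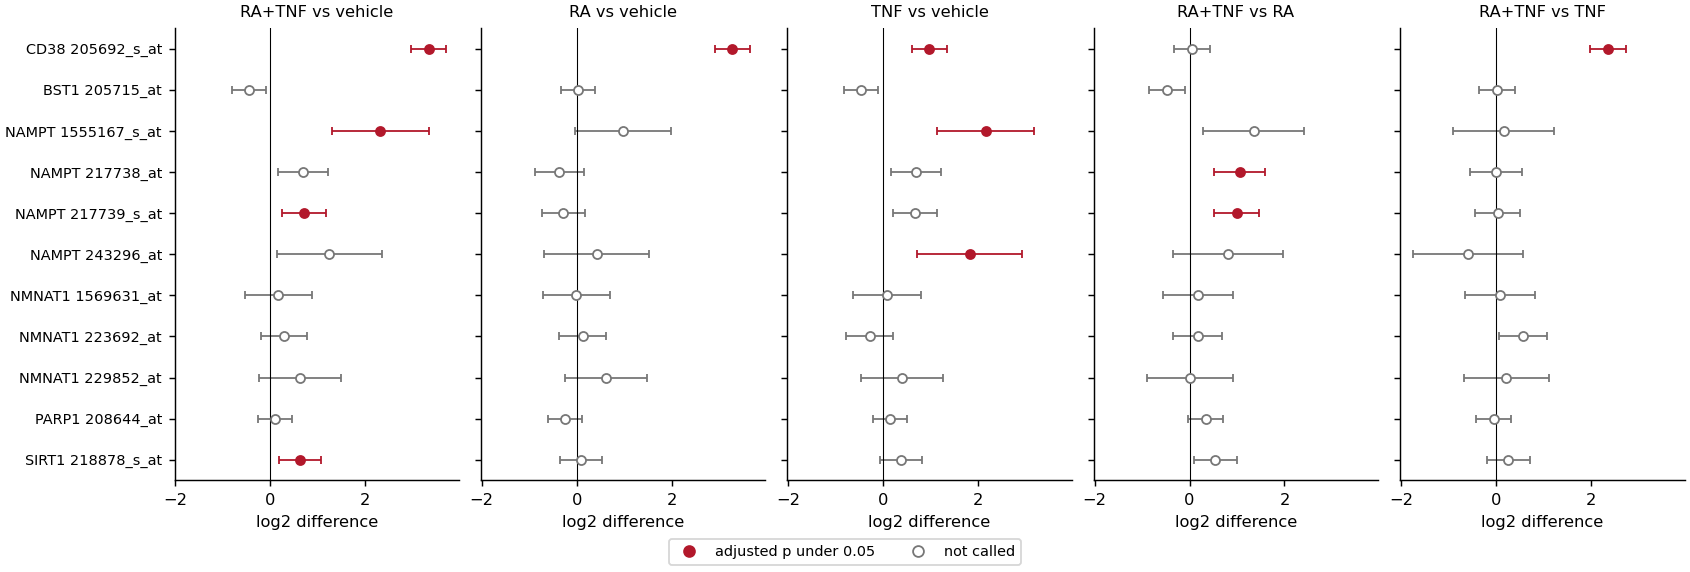
Log2 differences with 95% intervals for the 11 member probe sets in 5 comparisons at 40 h; red marks an adjusted p under 0.05. CD38 stands at 3.28 for RA against vehicle and 0.97 for TNF against vehicle, NAMPT 1555167_s_at at 2.16 for TNF, and BST1 at 0.03 for RA.

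The other genes of NAD metabolism were counted in RA against vehicle, TNF against vehicle and RA plus TNF against TNF, each gene by its brightest probe set, beside all-probe-set medians of 0.02, 0.02 and 0.03 and with 2.86%, 7.79% and 6.08% of all probe sets called in those comparisons. In fits with 1 probe set per gene, which are closer to these counts, the shares called were 4.14%, 11.3% and 7.29%. Of the 15 tested genes of NAD synthesis and salvage, 0 rose and 1 fell with RA (median -0.17), 1 rose and 0 fell with TNF (median -0.15), and 0 rose and 2 fell for RA plus TNF against TNF (median 0.13, of opposite sign to the calls). NMNAT3, an isoform described in mitochondria that carries out the same step as NMNAT1, was the gene that fell with RA, with levels of 5.51 to 9.23 in RA wells against 9.02 to 16.7 in vehicle wells (-0.94 ± 0.18, adjusted p = 0.00102). It was lower again for RA plus TNF, at 3.39 to 4.73 against 11.1 to 13.9 in TNF wells (-1.69 ± 0.19, adjusted p = 8.64e-08). RA and vehicle wells overlapped slightly in NMNAT3, RA plus TNF and TNF wells did not, and the call with RA was absent in each array set alone (highest adjusted p = 0.0615). A dimmer NMNAT3 probe set, 243738_at, was not called and had the opposite sign for RA (0.25).

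NADK, which phosphorylates NAD to NADP, rose with TNF (0.73, adjusted p = 0.00267), and 3 of its 4 other probe sets were called as well. The NADK call was lost without the array set term (0.67, adjusted p = 0.157) and in each array set alone (0.72 and 0.70, adjusted p = 0.0860 and 0.0842). PNP, which splits nicotinamide riboside and purine nucleosides, fell for RA plus TNF against TNF (-0.58, adjusted p = 0.0292), a call kept in 3 of 10 fits that each left out 1 array (highest adjusted p = 0.103, without RA plus TNF replicate 4). The kynurenine route makes NAD from tryptophan. Of its 5 tested genes, 0 rose or fell with RA (median 0.62), 2 rose with TNF (median 0.67) and 1 rose for RA plus TNF against TNF (median 0.37), with no falls.

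TDO2, which opens the tryptophan ring, had levels of 14.4 to 28.5 in RA plus TNF wells, 1.91 to 2.49 in TNF wells, 0.0596 to 1.33 in RA wells and 0.0575 to 1.14 in vehicle wells. The RA plus TNF wells stood apart from all others, and the TNF wells from vehicle. Most vehicle wells lay below the array median, so the size of the log2 difference between TNF and vehicle wells rests on dim signals. The TDO2 difference was 3.16 ± 0.63 for RA plus TNF against TNF (8.95-fold, adjusted p = 0.00116) and 2.57 ± 0.61 for TNF against vehicle (adjusted p = 0.00511). KYNU, which cleaves kynurenine and hydroxykynurenine, had levels of 66.0 to 89.3 in TNF wells against 35.7 to 61.9 in vehicle wells (0.67, adjusted p = 0.0102), without overlap, and its other 2 probe sets rose too. The KYNU call was lost without the array set term (adjusted p = 0.0503) and in array set 2 alone (0.41, adjusted p = 0.309).

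Among the 16 tested relatives of PARP1 that transfer ADP-ribose, 1 rose and 0 fell with RA (median -0.08), 3 rose and 1 fell with TNF (median -0.04), and 2 rose and 1 fell for RA plus TNF against TNF (median -0.13), beside the 2.86%, 7.79% and 6.08% of all probe sets called. With 1 probe set per gene these shares were 4.14%, 11.3% and 7.29%. The 3 that rose with TNF, PARP14, PARP9 and PARP12, are known as interferon-inducible members of the family. PARP14 had levels of 20.3 to 24.3 in TNF wells against 5.17 to 9.38 in vehicle wells (1.79 ± 0.18, 3.45-fold, adjusted p = 1.54e-08). PARP9 had levels of 14.2 to 28.4 against 5.15 to 9.40 (1.60 ± 0.21, adjusted p = 1.23e-06), and PARP12 had levels of 12.7 to 19.2 against 3.58 to 6.86 (1.55 ± 0.21, adjusted p = 3.35e-06), in the same order of groups. In none of the 3 did TNF and vehicle wells overlap. A dim second PARP14 probe set, 232610_at, was not called and had the opposite sign (-0.68).

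PARP16, a member anchored in the endoplasmic reticulum, fell with TNF (-1.20, adjusted p = 0.0365) and rose for RA plus TNF against TNF (1.44, adjusted p = 0.0163). Its fall was called in 5 of 11 fits that left out 1 array and its rise in 8 of 10, with the highest adjusted p in both cases without TNF replicate 2 (0.159 and 0.0717). TIPARP, a mono-ADP-ribosyltransferase that the aryl hydrocarbon receptor induces, rose for RA plus TNF against TNF (0.98, adjusted p = 0.00328), with 10.9 to 16.2 in RA plus TNF wells against 4.80 to 8.71 in TNF wells. PARP3 rose with RA (2.40 ± 0.59, adjusted p = 0.0153), at dim levels of 0.966 to 3.38 against 0.106 to 1.58 in vehicle wells, and was called in 8 of 11 fits that left out 1 array (highest adjusted p = 0.0517, without RA replicate 2). ART3 fell for RA plus TNF against TNF (-2.98 ± 0.68, adjusted p = 0.00427), with RA plus TNF wells below the array median.

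**Figure D5:**
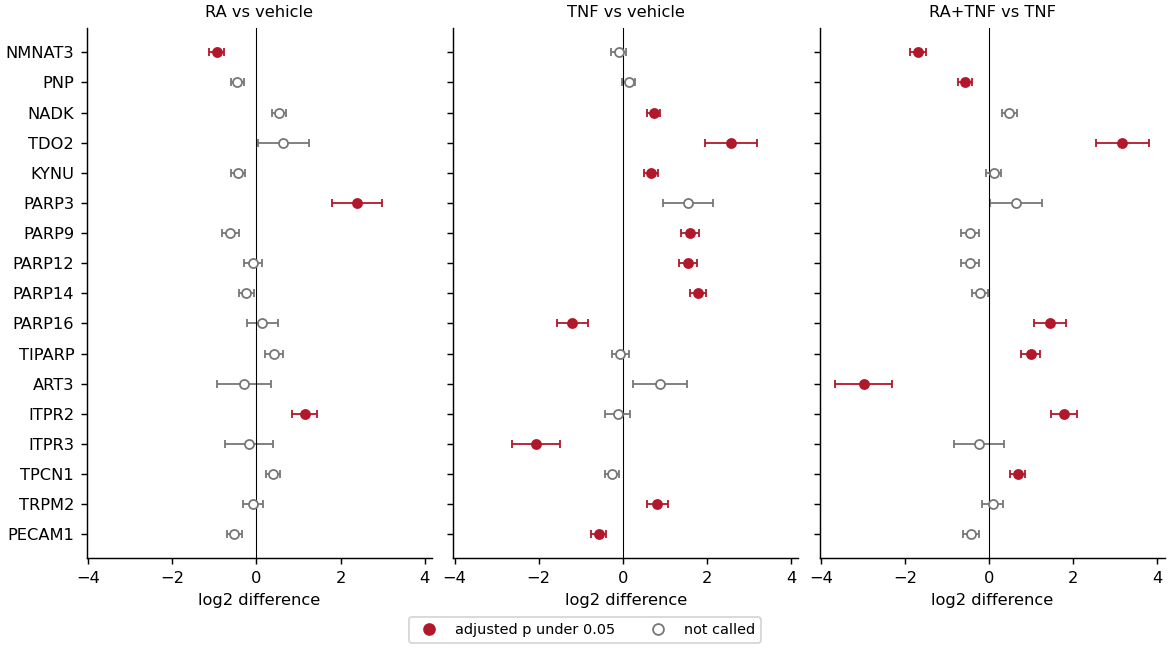
Log2 differences ± SE of the other genes of NAD metabolism that were called in at least 1 of 3 comparisons at 40 h. PARP14, PARP9 and PARP12 lie at 1.79, 1.60 and 1.55 for TNF against vehicle, TDO2 at 3.16 and NMNAT3 at -1.69 for RA plus TNF against TNF.

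The 5 tested sirtuins other than SIRT1 had 0 calls in the 3 comparisons (medians 0.01, 0.02 and -0.33), and so had the 8 tested genes of ADP-ribose removal and NAD breakdown (medians 0.01, -0.06 and 0.31). Under the other scalings the sirtuin medians for RA and TNF and the breakdown median for RA had a negative sign. A further list held calcium channels, transporters and partners around CD38 and its products. It included the ITPR genes, which encode inositol trisphosphate receptors and are not targets of CD38 products. Of its 9 tested genes, 1 rose with RA, 1 rose and 2 fell with TNF, and 2 rose for RA plus TNF against TNF (medians -0.08, -0.14 and 0.08). ITPR2, a calcium release channel of the endoplasmic reticulum, rose for RA plus TNF against TNF with levels of 4.83 to 13.7 against 1.53 to 2.96 (1.78 ± 0.31, adjusted p = 0.000164), and both of its other probe sets rose. With RA alone ITPR2 rose by 1.15 ± 0.29 (adjusted p = 0.0208), a call kept in 8 of 11 fits that left out 1 array (highest adjusted p = 0.120, without RA replicate 5). That ITPR2 rise was 1.95 in array set 2 and 0.49 in array set 1, where it was not called (adjusted p = 0.790). It was also lost without the array set term, without the intensity trend and with the replicate block (adjusted p = 0.0836, 0.0633 and 0.0766).

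TPCN1, an endolysosomal channel that NAADP-dependent signals open, rose for RA plus TNF against TNF (0.68, adjusted p = 0.0161; 0.0724 without TNF replicate 3), while its 2 other probe sets were not called. TRPM2, a cation channel opened by ADP-ribose, rose with TNF (0.82, adjusted p = 0.0299) and kept its call in 4 of 11 such fits (highest adjusted p = 0.0846, without vehicle replicate 4). PECAM1, the surface ligand of CD38, fell with TNF (-0.57, adjusted p = 0.0407), called in 4 of 11 such fits (highest adjusted p = 0.141, without vehicle replicate 1). The PECAM1 call was lost in each array set alone (adjusted p up to 0.202). Its probe set 1558397_at was called too (-1.02, adjusted p = 0.0431), while 1559921_at, 208981_at and 208983_s_at were not (-0.53, -0.28 and -0.21). ITPR3 fell with TNF in 1 probe set (-2.06, adjusted p = 0.0182; 0.0661 without TNF replicate 2) and had the opposite sign, uncalled, in its other one (0.69). Without the array set term, the calls named above for PNP, PARP16, PARP3, TPCN1, TRPM2, PECAM1 and ITPR3 were also lost (adjusted p 0.0836 to 0.397).

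The genes whose changes were most like those of CD38 were found by the root mean square difference over 6 log2 changes (RA at 2 h, 6 h and 16 h, and RA, TNF and RA plus TNF at 40 h, each against vehicle) among 12030 genes tested in both experiments. They were SIGLEC16 (0.359), GALM (0.369), MLXIPL (0.465), PTPRN2-AS1 (0.513) and NDRG1 (0.563). SIGLEC16 moved by 2.74 with RA and 0.80 with TNF at 40 h, and GALM by 3.04 and 0.20, beside 3.28 and 0.97 for CD38. For the brightest NAMPT probe set they were GOT1 (0.0922), MRPL14 (0.103), TRAF1 (0.111), TSR3 (0.113) and SLC25A13 (0.116), whose changes with TNF ran from 0.47 for TRAF1 to 0.81 for GOT1, beside 0.67 for NAMPT. These root mean square differences are smaller than the SE of that NAMPT change, given above, so the order of the genes nearest to NAMPT is not resolved. Several of the 6 changes share vehicle arrays.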

How the data were processed

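The deposited values are log2 signals of the authors, computed with GCOS, the array maker's software, as the submitters' processing notes name it; version and settings are not given in the sources used here. Every array's median is 0, which was read from the values: each signal is relative to its own array's median. Groups came from titles and protocols. Values entered limma 3.58.1 (R 4.3.3) as deposited: lmFit and eBayes with an intensity trend over the 27306 non-control probe sets whose mean linear value exceeded the median of all (0.882 times the array median for experiment 1 and 0.891 times it for experiment 2), with 62 AFFX controls left out. Experiment 1 took 21 arrays with array set as a covariate (16 residual degrees of freedom), and experiment 2 took 17 arrays of set 2, with 5 vehicle wells at 16 h and 3 at 40 h (12 residual degrees of freedom). Tests were two-sided, with BH adjustment over all probe sets. The fit was tested on simulated data. Members, lists and markers were chosen with earlier results of these data known. Named were all members, genes of each list called in 3 comparisons (up to 4 each, by adjusted p) and the 5 genes nearest to CD38 and to NAMPT. Alternatives were other scalings, filters, fits and arrays left out. Promoters came from RefSeq (GRCh38.p14). The number of arrays limits the precision.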

Additional observations from a re-analysis of the deposited data

Results flagged for a closer look

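Within groups of 4 to 6 wells, 5 of 55 sets of member levels had a lowest or highest well far from the others by Dixon's 95% criterion, and chance flags about 1 in 20 groups. NAMPT probe set 243296_at was lowest in RA 40 h replicate 4, at 0.098 of the array median. NMNAT1 had a lowest well in 3 probe sets: 1569631_at at 1.14 in TNF replicate 2, 223692_at at 2.24 in vehicle 40 h replicate 1 and 229852_at at 0.274 in vehicle 40 h replicate 3. SIRT1 was highest in TNF replicate 1, at 13.6. No group of CD38, BST1 or PARP1 levels met the criterion.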

How the results depend on the processing

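No member difference changed direction past the threshold in any alternative that was run, and CD38 kept its call with RA at 6 h, 16 h and 40 h in all of them. Counts of called member probe sets moved as follows. TNF against vehicle had 3 calls, with 5 after quantile normalization, 6 on the signals without median centring, 1 without the array set term and 1 in array set 2 alone. Of all probe sets 7.79% were called in the main fit, and 13.4%, 13%, 3.36% and 4.34% in those settings in turn. The interaction of RA with TNF had 0, with 1 after quantile normalization and 1 without median centring (CD38). Calls of all probe sets went from 0.249% to 0.923% and 0.89% under these 2 scalings. RA plus TNF against RA had 2, with 3 under either scaling (BST1 was added), 1 under the stricter filter, 1 with 1 probe set per gene, 0 without the array set term and 1 in set 2 alone. NAMPT 217738_at was not tested under the stricter filter or with 1 probe set per gene. Calls of all probe sets went from 9.54% to 14.4% and 14.5% under the scalings. They were 17% under the stricter filter, 12.2% with 1 probe set per gene, 4.31% without that term and 3.48% in set 2. RA plus TNF against vehicle had 4, with 2 without the intensity trend, 2 without the array set term, 2 in set 1 alone and 2 to 5 when 1 array was left out. Of all probe sets 14.9% were called, with 13.1% without the trend, 7.69% without that term and 8.03% in set 1. RA at 40 h in the time course had 1, with 2 under either scaling (PARP1 was added), while calls of all probe sets went from 3.51% to 6.91% and 6.61%. RA at 6 h against 2 h had 0, with 1 under each scaling, the stricter filter and 1 probe set per gene (CD38). Calls of all probe sets were 0.0439%, and 0.15%, 0.168%, 0.161% and 0.12% in those settings. RA at 16 h against 6 h had 1, with 0 under either scaling and 0 to 3 when 1 array was left out. RA at 2 h had 1, with 0 without the intensity trend and 0 to 1 when 1 array was left out. RA at 16 h had 2, with 1 to 2 when 1 array was left out. Leaving out 1 array gave 2 to 4 for TNF and 2 to 3 for RA plus TNF against RA. For RA at 16 h against 6 h, 17.9% of all probe sets were called, with 0.82% and 0.864% under the scalings. For RA at 2 h, 0.571% were called, with 0.308% without the intensity trend.

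Whether the replicate numbers pair the wells could not be settled. Deviations of same-numbered wells correlated by -0.06 to 0.06 in experiment 1 and by -0.07 to 0.12 in experiment 2. In experiment 2, 3 of 17 same-numbered pairs and 0 of 85 other pairs exceeded 0.1 (medians 0.032 and -0.015). Where a group has 2 wells in an array set, their deviations mirror each other, so same-numbered and other pairs are not independent. With the replicate block, CD38 at 2 h of RA was not called (adjusted p = 0.166), which left 0 member calls there, and SIRT1 was not called in RA plus TNF against vehicle (adjusted p = 0.0602), which left 3.

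Over all probe sets, RA against vehicle had 780 calls (562 rises, 218 falls) and 1475 after quantile normalization (805 rises, 670 falls), with 330 without the array set term and 316 in set 1 alone. TNF had 2126, with 3654 after quantile normalization and 917 without the array set term. RA plus TNF against vehicle had 4067, with 2099 without that term. The interaction had 68, with 252 after quantile normalization, 219 in set 1 alone and 12 without the intensity trend. RA at 6 h had 1352 calls (1317 rises, 35 falls), with 732 (474 rises, 258 falls) without median centring and 469 with the block. RA at 16 h against 6 h had 4885, with 224 after quantile normalization and 8 without RA 6 h replicate 2. RA at 2 h had 156, with 72 with the block and 49 without RA 2 h replicate 2. Of the genes of NAD synthesis and salvage, 1 rose and 2 fell with RA under either scaling, where 5.4% and 5.18% of all probe sets were called. The cause of these shifts was not tested. With arrays in 2 sets and 2 wells at 2 h and at 6 h, small changes of dim probe sets such as NAMPT 243296_at are out of reach.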
